A study of Mus musculus with 8 samples.

Results

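Neutrophil granule genes were examined for H3K9ac, the acetylation of histone H3 at lysine 9 that marks active promoters, in bone marrow (BM) cells. The 10 genes were chosen by name, among 21938 protein-coding genes of the annotation, as 4 genes of the primary granule (*Elane*, *Mpo*, *Prtn3* and *Ctsg*) and 6 genes that neutrophils switch on later (*Ltf*, *Camp*, *Ngp*, *Lcn2*, *S100a8* and *S100a9*). All 10 names matched the annotation. For each gene, the peaks within 1 kb of a transcription start site (TSS) and within 10 kb of the gene were read from the deposited peak lists of 6 ChIP-seq libraries.

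All mice were C57BL/6 and carried the *Nup98-HOXD13* transgene, a leukaemia fusion gene used as a model of myelodysplastic syndrome, so the controls carried it too. They differed in their *GFI1* alleles: *GFI1-36S* mice express the common human form of this transcriptional repressor from the mouse locus, *GFI1-36N* mice a form with serine 36 replaced by asparagine, and *GFI1-KD* mice have reduced *GFI1* expression. One library came from mice injected weekly with curcumin (20 mg/kg) and 1 from mice labelled as without curcumin, called vehicle here, for each of the 3 forms. The age of the mice and the number of mice behind a library are not given in the sources used here. Since each group was 1 library, differences between libraries could not be set against a replicate spread, and no p-value was computed.

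Neutrophils fill their granules in a fixed order. Promyelocytes make the primary (azurophil) granules, which hold myeloperoxidase and the serine proteases, whereas myelocytes and later stages make the specific granules and large amounts of the calcium-binding proteins S100A8 and S100A9, which monocytes also contain. PU.1 and C/EBP factors are known to drive these genes, C/EBP epsilon is needed for the specific granules, and GFI1 is known to be required for neutrophil maturation and to repress *Elane*.

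The promoter sequences of 5 granule genes are shown because they are the promoters at which the primary genes and *Ngp*, *Camp* and *S100a8* are compared here. Each stretch is the 250 bases before the most upstream TSS, read 5′ to 3′ along the gene from the RefSeq assembly GRCm38.p6 (the mm10 build of the peak lists). Capitals mark matches on either strand to 5 motifs, namely TTGCNNAA (C/EBP), GAGGAAG (PU.1), TGTGGT (RUNX), TAACNG (MYB) and AATCACNGC (GFI1).
Elane, chr10:79885997-79886246, plus strand: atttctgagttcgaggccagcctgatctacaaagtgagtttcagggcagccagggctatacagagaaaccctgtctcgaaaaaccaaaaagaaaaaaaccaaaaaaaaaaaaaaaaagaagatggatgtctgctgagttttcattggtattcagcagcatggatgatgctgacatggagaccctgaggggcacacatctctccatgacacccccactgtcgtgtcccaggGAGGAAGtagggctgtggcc
Mpo, chr11:87793331-87793580, plus strand: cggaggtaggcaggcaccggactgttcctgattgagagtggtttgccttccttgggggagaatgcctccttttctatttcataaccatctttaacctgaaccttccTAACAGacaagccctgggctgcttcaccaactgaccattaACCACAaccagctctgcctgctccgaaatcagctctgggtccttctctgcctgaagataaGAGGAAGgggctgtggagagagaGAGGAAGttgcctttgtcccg
Ngp, chr9:110419497-110419746, plus strand: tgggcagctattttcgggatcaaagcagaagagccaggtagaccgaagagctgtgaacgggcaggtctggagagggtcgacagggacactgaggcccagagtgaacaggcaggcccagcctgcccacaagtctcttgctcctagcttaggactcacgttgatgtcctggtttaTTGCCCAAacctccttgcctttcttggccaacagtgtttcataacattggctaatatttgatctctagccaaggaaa
Camp, chr9:109849618-109849867, minus strand: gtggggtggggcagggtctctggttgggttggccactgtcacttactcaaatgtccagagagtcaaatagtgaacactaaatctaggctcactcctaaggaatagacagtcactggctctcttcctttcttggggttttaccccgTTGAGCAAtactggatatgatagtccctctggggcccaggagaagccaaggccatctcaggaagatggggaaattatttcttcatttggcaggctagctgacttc
S100a8, chr3:90668728-90668977, plus strand: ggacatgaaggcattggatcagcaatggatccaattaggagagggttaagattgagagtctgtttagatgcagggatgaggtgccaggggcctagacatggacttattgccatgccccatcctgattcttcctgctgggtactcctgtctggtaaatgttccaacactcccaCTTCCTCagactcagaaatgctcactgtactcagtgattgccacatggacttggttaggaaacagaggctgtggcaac

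A PU.1 match was found in all 4 primary promoters and in 1 of the 6 later ones, *S100a8*, against 10.6% of 21938 protein-coding promoters of the same length. In the *Elane* stretch the match began 20 bp before the TSS, and *Mpo* had 2 matches, beginning 44 and 21 bp before it. The C/EBP letters were present in 5 of the 6 later promoters, all but *S100a8*, and in none of the primary ones, against 9.04% of all promoters. The remaining 5 members are given by 1 of these matches each, with 10 bases on either side.
Prtn3, chr10:79879562-79879588, plus strand: aaactggaagGAGGAAGtgggacccac
Ctsg, chr14:56102774-56102800, minus strand: cccagaaggaGAGGAAGaaaaggaagt
Ltf, chr9:111019207-111019234, plus strand: ggcaggcctaTTGGGCAAtagggtgggg
Lcn2, chr2:32387938-32387965, minus strand: gcccttcctgTTGCTCAAccttgcacag
S100a9, chr3:90695940-90695967, minus strand: gtaggctgtcTTGCTTAAgatttgggcg

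RUNX letters occurred at *Mpo*, *Ctsg* and *S100a9* (12.7% of all promoters) and MYB letters at *Mpo* alone (18.3%). The GFI1 letters were in none of the 10 stretches and in 0.889% of all promoters. No match overlapped another one. A match describes letters in this window and was not tested for binding, and a window without a match leaves the factor undescribed.

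The library labelled *GFI1-36S* curcumin stood apart. All 14 T-cell markers looked at had a promoter peak there, against 4 to 8 in the other 5 libraries, while peaks were present at 1 of 8 monocyte, 2 of 10 erythroid and 1 of 10 progenitor markers. Over all protein-coding genes, 44.3% had a promoter peak there and 50.6% to 53.8% in the other 5 libraries. The names of the *GFI1-36S* lists also carry treatments opposite to the sample labels, and the labels were followed. In the other 5 libraries, peaks were present at 8 of 8 monocyte, 5 to 10 of 10 erythroid and 8 to 10 of 10 progenitor markers. Of 9 B-cell markers, 1 to 4 had a peak in these 5 libraries. Of 6 mast cell and basophil markers, 2 had a peak in *GFI1-36N* curcumin and none in the other libraries. The lists held between 20354 (*GFI1-36S* curcumin) and 49213 (*GFI1-36N* curcumin) peaks. Because the cells were a mixture, fewer cells of a type and less acetylation per cell cannot be told apart.

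In every library except *GFI1-36S* curcumin all 4 primary genes had a promoter peak. The later genes varied more: 5 of 6 had a promoter peak in *GFI1-36S* vehicle, 4 in each *GFI1-36N* library, 5 in *GFI1-KD* vehicle and 1 in *GFI1-KD* curcumin. The share of all protein-coding genes with a promoter peak was 51.9% in *GFI1-36S* vehicle, 44.3% in *GFI1-36S* curcumin, 51.7% and 53.8% in *GFI1-36N* vehicle and curcumin, and 53.6% and 50.6% in *GFI1-KD* vehicle and curcumin. The single later gene that kept its peak in *GFI1-KD* curcumin was *S100a8*.

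**Figure D1:**
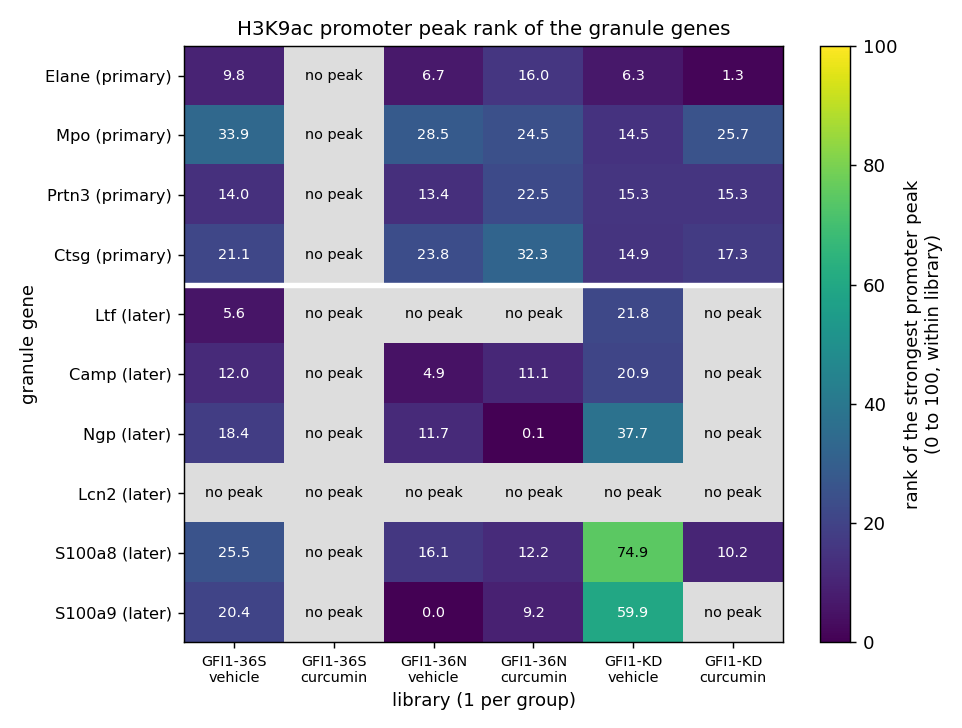
Rank of the strongest promoter peak of each granule gene (rows) in each of the 6 libraries (columns), from 0 to 100 among the genes with a promoter peak of the same library. Grey fields have no peak. The primary genes lie between 1.29 and 33.9 in 5 libraries, *S100a8* and *S100a9* reach 74.9 and 59.9 in GFI1-KD vehicle, and the GFI1-36S curcumin column is empty.

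The strength of a promoter peak was expressed as its rank. The fold enrichment of the strongest promoter peak of a gene was ranked from 0 to 100 among the genes with a promoter peak of the same library, and genes without a peak were given 0. Ranks compare a gene with the other genes of its library and are independent of the scale of that library. The median rank of the primary genes was 17.6 in *GFI1-36S* vehicle, 18.6 in *GFI1-36N* vehicle, 23.5 in *GFI1-36N* curcumin, 14.7 in *GFI1-KD* vehicle and 16.3 in *GFI1-KD* curcumin. That of the later genes was 15.2, 2.45, 4.65, 29.7 and 0 in the same order. Over the 12557 genes with a promoter peak in at least 1 library, the median lay between 43.3 and 46.8 in these 5 libraries, so most granule promoters sat in the lower part of the scale.

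Later minus primary, the medians differed by −2.40 in *GFI1-36S* vehicle, −16.1 and −18.9 in *GFI1-36N* vehicle and curcumin, 15.0 in *GFI1-KD* vehicle and −16.3 in *GFI1-KD* curcumin. The later genes thus ranked above the primary genes in 1 library, *GFI1-KD* vehicle. When a promoter peak had to have its summit inside the 1 kb window, that difference became −9.84. This setting left 3 primary and 3 later genes with a peak. The summits of the strongest *Ltf*, *Camp*, *S100a8* and *S100a9* peaks lay between 1099 and 1587 bp downstream of the TSS, and that of *Prtn3* at 2414 bp. With the strongest peak within 10 kb of the gene in place of the promoter peak, the difference in *GFI1-KD* vehicle was 12.3. The size of the other differences also depended on the setting, with the same sign, from −6.15 to −2.37 in *GFI1-36S* vehicle, from −25.2 to −9.13 and from −28.5 to −14.3 in *GFI1-36N* vehicle and curcumin, and from −27.9 to −9.37 in *GFI1-KD* curcumin.

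**Figure D2:**
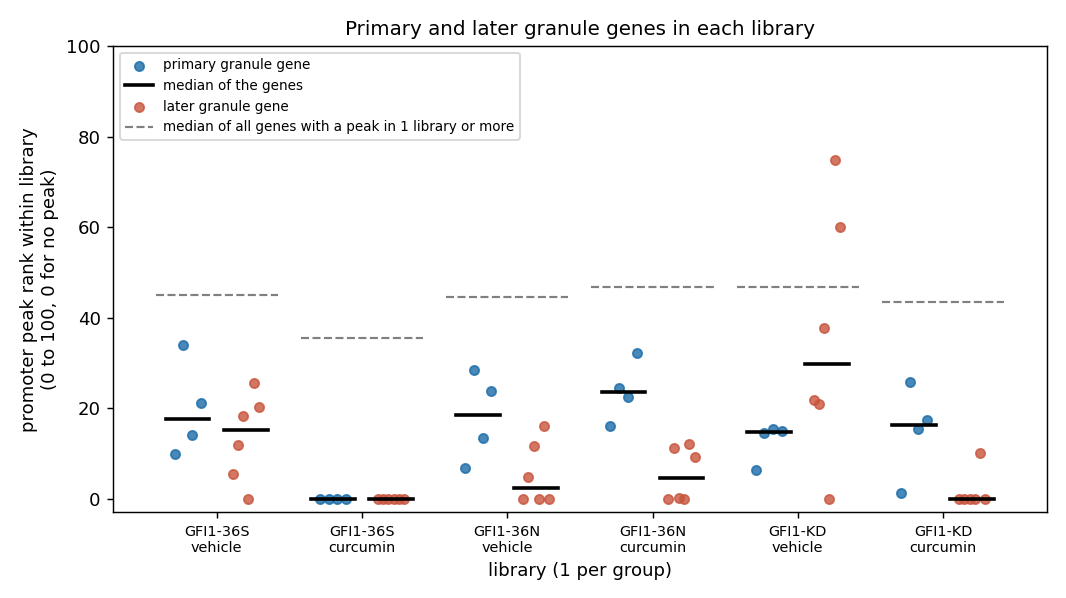
Promoter peak rank (0 to 100, 0 for no peak) of the 4 primary (blue) and 6 later (red) granule genes in each library, with their medians (black bars) and the median of all genes with a promoter peak in 1 library or more (dashed). The later median of 29.7 in GFI1-KD vehicle lies above the primary median of 14.7 (below it when the summit must lie inside the window), and the later median of 0 in GFI1-KD curcumin lies below the primary median of 16.3.

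*Mpo* encodes myeloperoxidase, the enzyme that makes hypochlorous acid, and lies on chromosome 11 of mm10 from 87793581 to 87804413 on the plus strand. Its promoter peak had rank 33.9 in *GFI1-36S* vehicle, 28.5 and 24.5 in *GFI1-36N* vehicle and curcumin, and 14.5 and 25.7 in *GFI1-KD* vehicle and curcumin. The fold enrichment over the local background was 15.6, 11.9, 12.5, 7.68 and 12.4 in the same order. *GFI1-KD* vehicle was the lowest of the 5 on both scales. The fragments at the summit, however, numbered 72 there (exact Poisson 95% interval 56.3 to 90.7) and 74 (58.1 to 92.9) with curcumin, so the counts overlapped while the local background differed. These intervals cover counting error only, and the counts are not scaled for depth. Over all promoter peaks, the median count was 133 in *GFI1-KD* vehicle and 100 in *GFI1-KD* curcumin. It was 100 in *GFI1-36S* vehicle and 99 and 95 in *GFI1-36N* vehicle and curcumin.

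The acetylated domain of *Mpo* was steady in position. The peak was 3146 to 3634 bp wide in the 5 libraries and started between −399 and 81 bp relative to the TSS. Its summit lay 1488 to 1641 bp downstream, and a second peak of 1215 to 1307 bp followed inside the gene. Peaks covered between 49.9% (*GFI1-KD* curcumin) and 77.7% (*GFI1-36S* vehicle) of the gene body.

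*Ctsg*, the gene of the protease cathepsin G, is on chromosome 14 from 56099881 to 56102574 on the minus strand. It ranked 21.1 in *GFI1-36S* vehicle, 23.8 and 32.3 in *GFI1-36N* vehicle and curcumin, and 14.9 and 17.3 in *GFI1-KD* vehicle and curcumin. At the summit, 87 fragments (69.7 to 107) were found in *GFI1-36N* vehicle and 104 (85.0 to 126) in *GFI1-36N* curcumin, the highest count of a primary gene. The *GFI1-KD* libraries had 70 (54.6 to 88.4) and 65 (50.2 to 82.8), and the intervals overlapped within both pairs. The peak was 2719 to 3970 bp wide and covered between 98.4% of the gene (*GFI1-36N* vehicle) and all of it. Weaker peaks lay further upstream in all of them, for example from −3743 to −2784 bp relative to the TSS in *GFI1-36N* vehicle with 6.98-fold enrichment.

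*Prtn3* and *Elane* encode proteinase 3 and neutrophil elastase and lie next to each other on chromosome 10, from 79874476 to 79883174 and from 79886247 to 79888215, both on the plus strand. *Prtn3* had rank 14.01 in *GFI1-36S* vehicle, 13.4 and 22.5 in the *GFI1-36N* pair and 15.3 in both *GFI1-KD* libraries. Its strongest promoter peak, 3374 to 5459 bp wide, began near the TSS of the protein-coding transcript and ran through the gene towards *Elane*. *Elane* ranked lower than *Prtn3* in each of the 5 libraries, with 9.83 in *GFI1-36S* vehicle, 6.73 and 16.0 in the *GFI1-36N* pair, then 6.32 with vehicle and 1.29 with curcumin in *GFI1-KD* mice.

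The *Elane* summits held few fragments, 34 (23.5 to 47.5) in *GFI1-36S* vehicle, 30 (20.2 to 42.8) and 46 (33.7 to 61.4) in *GFI1-36N*, and 32 (21.9 to 45.2) and 25 (16.2 to 36.9) in *GFI1-KD* vehicle and curcumin. All of these intervals overlapped. The *Elane* peak was widest, at 2820 bp, in *GFI1-36N* curcumin, where peaks covered the whole gene, and narrowest, at 587 bp, in *GFI1-KD* vehicle. Coverage of the gene was 23.4% in *GFI1-KD* curcumin. Within 10 kb of *Elane*, the strongest peak in every one of the 5 libraries was the one at the *Prtn3* promoter.

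Near these genes, *Plppr3* had a promoter peak in all 6 libraries, at ranks from 4.85 to 37.2. A noncoding *Prtn3* transcript outside GENCODE's basic set starts at the *Plppr3* promoter, and with the starts of every annotated transcript *Prtn3* also had a peak in *GFI1-36S* curcumin. *Cfd*, the complement factor D gene downstream of *Elane*, had a weak peak in *GFI1-36N* curcumin (rank 1.35) and none elsewhere.

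**Figure D3:**
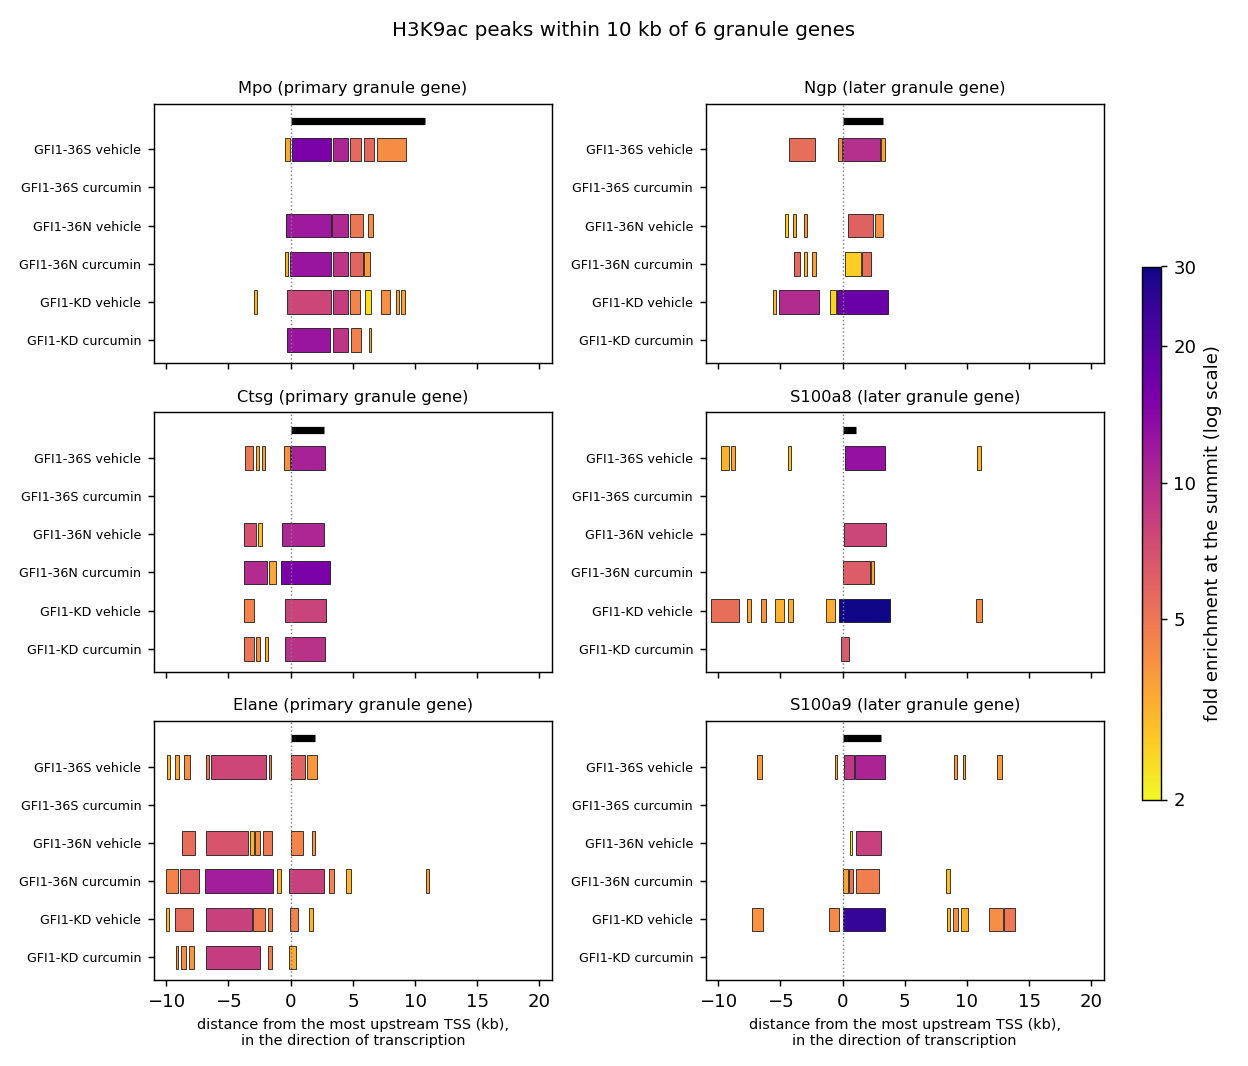
Peaks within 10 kb of 3 primary (left) and 3 later (right) granule genes, drawn to scale by distance from the most upstream TSS in kb along the gene, 1 row per library, coloured by fold enrichment on a log scale. The black bar is the gene. The broad peaks over Mpo and Ctsg recur in 5 libraries, whereas those over Ngp, S100a8 and S100a9 are darkest in GFI1-KD vehicle and shrink to 1 peak of 646 bp, at S100a8, in GFI1-KD curcumin.

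*S100a8* and *S100a9* encode the subunits of calprotectin and lie on chromosome 3, from 90668978 to 90670035 on the plus strand and from 90692632 to 90695721 on the minus strand. *S100a8* had rank 25.5 in *GFI1-36S* vehicle, 16.1 and 12.2 in *GFI1-36N* vehicle and curcumin, and 74.9 and 10.2 in *GFI1-KD* vehicle and curcumin. Its fold enrichment was 12.8, 7.76, 6.27, 29.5 and 6.40 in the same order. *GFI1-KD* vehicle therefore held the strongest *S100a8* peak by a wide margin. The summit there held 215 fragments (187 to 246), against 41 (29.4 to 55.6) in *GFI1-KD* curcumin, 75 (59.0 to 94.0) in *GFI1-36S* vehicle and 53 (39.7 to 69.3) and 41 (29.4 to 55.6) in *GFI1-36N*. The interval of *GFI1-KD* vehicle did not overlap any other.

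The *S100a8* peak also narrowed. It was 4084 bp wide in *GFI1-KD* vehicle, from −266 to 3817 bp relative to the TSS, and 646 bp in *GFI1-KD* curcumin, from −85 to 560 bp. The summit moved from 1120 to 165 bp downstream of the TSS. Within 10 kb of the gene, the vehicle library had 8 peaks and the curcumin library 1.

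*S100a9* ranked 20.4 in *GFI1-36S* vehicle, 0.0090 and 9.17 in *GFI1-36N* vehicle and curcumin and 59.9 in *GFI1-KD* vehicle, and had no peak in *GFI1-KD* curcumin. The *GFI1-KD* vehicle peak held 180 fragments (155 to 208) and covered 3403 bp, and no peak of *GFI1-KD* curcumin lay within 10 kb of the gene. In *GFI1-36N* vehicle the domain was split. The promoter peak was 216 bp wide with 2.13-fold enrichment, while a peak of 2017 bp with 8.19-fold enrichment and 56 fragments (42.3 to 72.7) started 1105 bp downstream of the TSS, outside the window.

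*Ngp*, which encodes neutrophilic granule protein, is on chromosome 9 from 110419747 to 110423012 on the plus strand. It had rank 18.4 in *GFI1-36S* vehicle, 11.7 and 0.127 in *GFI1-36N* vehicle and curcumin, 37.7 in *GFI1-KD* vehicle and no peak in *GFI1-KD* curcumin. The fragments at its summit were 60 (45.8 to 77.2), 41 (29.4 to 55.6), 29 (19.4 to 41.6) and 145 (122 to 171) in the same order, highest in *GFI1-KD* vehicle without overlap. In *GFI1-36N* curcumin the fold enrichment at that summit was 2.62, and the next peak, 688 bp wide and starting 1599 bp downstream, had 5.37. A region about 4 kb upstream of *Ngp* also carried peaks in *GFI1-36S* vehicle, both *GFI1-36N* libraries and *GFI1-KD* vehicle. It formed 1 peak of 3241 bp with 72 fragments (56.3 to 90.7) in *GFI1-KD* vehicle and was without a peak in *GFI1-KD* curcumin.

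*Camp*, the cathelicidin gene, lies on chromosome 9 from 109847379 to 109849617 on the minus strand. Its ranks were 11.97 in *GFI1-36S* vehicle, 4.89 and 11.1 in *GFI1-36N* vehicle and curcumin and 20.9 in *GFI1-KD* vehicle. The summit held 39 (27.7 to 53.3), 27 (17.8 to 39.3), 33 (22.7 to 46.3) and 88 (70.6 to 108) fragments. In these unscaled counts, *GFI1-KD* vehicle again stood above the others. No peak was listed within 10 kb in *GFI1-KD* curcumin.

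*Ltf*, the lactoferrin gene, is on chromosome 9 from 111019271 to 111042767 on the plus strand. Its promoter had 3 narrow peaks in *GFI1-36S* vehicle, the strongest at rank 5.56, none in either *GFI1-36N* library, and 1 peak of 7586 bp at rank 21.8 in *GFI1-KD* vehicle. That peak was the widest promoter peak of any granule gene and held 80 fragments (63.4 to 99.6). In *GFI1-36N* vehicle, 5 peaks lay 1404 to 4242 bp downstream, outside the promoter window. *GFI1-KD* curcumin had 1 narrow peak within 10 kb of the gene, with its summit 14772 bp downstream of the TSS and 33 fragments (22.7 to 46.3). *GFI1-KD* vehicle had a peak at the same place with 26 fragments (17.0 to 38.1).

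*Lcn2*, which encodes lipocalin 2, an iron-sequestering protein of the specific granules, lies on chromosome 2 from 32384633 to 32388252 on the minus strand. No library had a peak at its promoter or within 10 kb of it. The neighbouring promoters of *Ptges2* and *1110008P14Rik* had none in any library either. The absence of a listed peak means that the site did not pass the authors' threshold or fell in the black list regions that they removed. It does not mean that acetylation was absent.

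**Figure D4:**
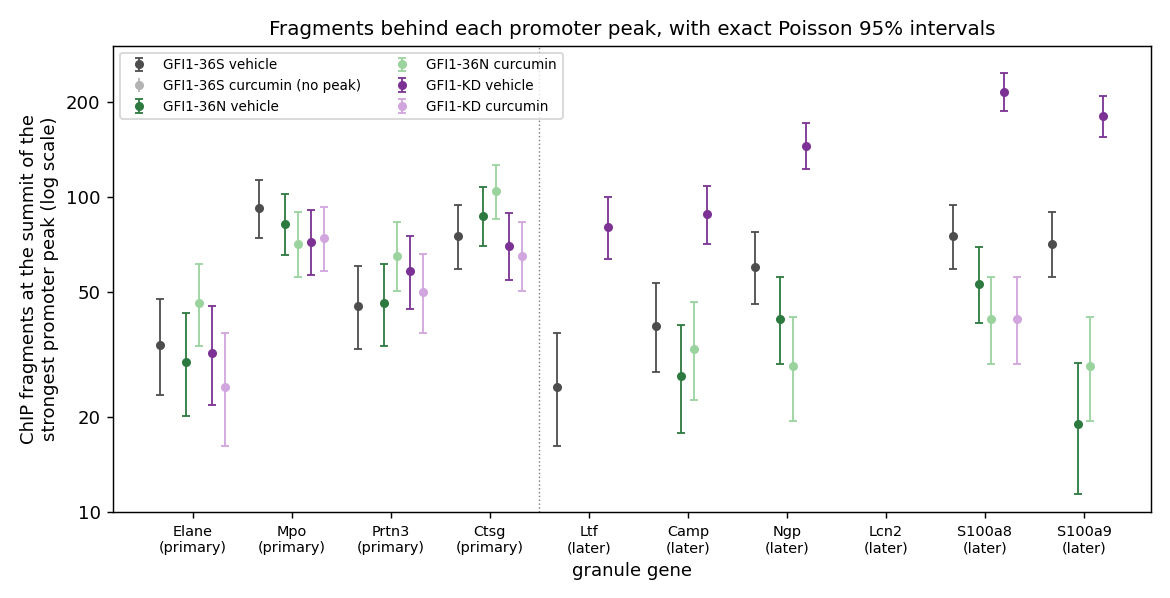
Whole ChIP fragments at the summit of the strongest promoter peak (log scale) of each granule gene, with exact Poisson 95% intervals that cover counting error only, coloured by library. GFI1-KD vehicle has the highest counts at all 5 later genes with a peak, 80 to 215, and lies among the other libraries at the primary genes. Counts are not scaled for depth. The median over all promoter peaks is 133 in GFI1-KD vehicle and 95 to 100 in the other libraries with a peak shown.

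The effect of curcumin was compared within each pair of libraries. A gene was counted as lost when its promoter had a peak with vehicle alone and as gained when it had one with curcumin alone. In *GFI1-KD* mice, 4 later genes (*Ltf*, *Camp*, *Ngp* and *S100a9*) and none of the primary genes were lost, and none was gained. Among all 11908 genes that had one in this pair, 6.73% were lost and 1.19% gained. The median rank change, curcumin minus vehicle, was 1.22 for the primary genes, −37.7 for the 5 later genes with a peak and −2.34 for all genes. Over all genes of the pair, 62.9% ranked lower and 37.1% higher with curcumin, against 5 of 5 later genes lower and 3 of 4 primary genes higher. *S100a8* changed by −64.7 and *S100a9* by −59.9, and 0.092% and 0.126% of all genes in the pair had a lower change. *Mpo* changed by 11.2 in the opposite direction, *Ctsg* by 2.41, *Prtn3* by 0.017 and *Elane* by −5.04. With the summit required inside the window, 2 granule genes were lost in place of 4.

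The bases covered by peaks within 10 kb, summed over the genes, were similar for the primary genes in this pair, 28975 bp with vehicle and 25473 bp with curcumin. For the later genes they were 35764 bp with vehicle and 909 bp with curcumin. At least 1 peak lay within 10 kb of 5 later genes with vehicle and of 2 with curcumin, against 64.5% and 61.5% of all genes. Peaks between *Prtn3* and *Elane* are counted for both genes in these sums.

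Other lineages also differed between the *GFI1-KD* libraries. All 10 erythroid markers ranked lower with curcumin (median change −14.7), 7 of 8 monocyte markers ranked higher (median change 13.5) and 5 of 10 progenitor markers ranked higher (median change 1.26), beside the 62.9% of all genes that ranked lower and the 37.1% that ranked higher. The share of these lineages in the cells, and their part in the values of the granule genes, was not tested.

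In *GFI1-36N* mice no granule gene was lost or gained with the settings used here. With a −log10 q of 5 or more, a list of 20354 top peaks, a 3 kb window or the summit inside the window, 1 was lost, and all of these but the 3 kb window gave 1 or 2 gained. Over all 12022 genes with a peak in this pair, 1.84% were lost and 5.73% gained. *Elane*, *Prtn3* and *Ctsg* ranked higher with curcumin, by 9.28, 9.12 and 8.50, and *Mpo* changed by −3.95. The primary median change was 8.81, beside 1.89 for all genes, of which 60.1% ranked higher and 39.9% lower. Among the later genes, *Camp* and *S100a9* ranked higher by 6.22 and 9.16, and *Ngp* and *S100a8* changed by −11.6 and −3.98, with a median of 1.12. These ranks use promoter peaks alone. The strongest *S100a9* and *Camp* peaks with vehicle and the strongest *Ngp* peak with curcumin lay outside the promoter window. Within 10 kb, the strongest *S100a9* peak was 8.19-fold with vehicle and 5.19-fold with curcumin, and the strongest *Ngp* peak 6.04-fold and 5.71-fold. At both genes these values came from different sites. At *S100a9* the downstream site went from 8.19 to 4.67 and the promoter site from 2.13 to 5.19. The strongest *Ngp* peak lay in the gene with vehicle and upstream of it with curcumin. An overlapping upstream peak had 3.31 with vehicle, and the strongest peak in the gene had 5.37 with curcumin. The *S100a8* peak went from 7.76 to 6.27. At *Camp* the strongest peak was stronger with curcumin, also at a different site. The primary genes had 28158 bp covered with vehicle and 39272 bp with curcumin, and the later genes 12404 and 10980 bp. With a peak within 10 kb of all 4 primary and 5 later genes in both libraries, these genes stood beside 63.1% and 65.7% of all genes. By the list names, the vehicle library came from heterozygous and the curcumin library from homozygous *GFI1-36N* marrow. The labels do not state this, and zygosity and treatment cannot be told apart.

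In the *GFI1-36S* pair as labelled, all 9 genes with a promoter peak in the vehicle library, the 4 primary and 5 later ones, had none in the curcumin library. Over the 11608 genes of this pair, 16.2% were lost and 1.99% gained. The median rank change was −17.6 for the primary and −18.4 for the later genes, beside −6.61 for all genes. Covered bases within 10 kb went from 31911 to 187 bp for the primary and from 19424 to 0 bp for the later genes, and the remaining 187 bp belonged to the peak at the *Plppr3* promoter. A peak within 10 kb was present for 9 granule genes in the vehicle and 1 in the curcumin library, against 62.8% and 53.8% of all genes. If the treatments in the list names were right, the 9 genes would count as gained. While these 9 genes ranked lower in the library labelled curcumin, all 14 T-cell markers ranked higher there (median change 27.8). Of all genes, 30.9% ranked higher and 69.1% lower. The part of T cells in the granule gene values was not tested.

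The GFI1 forms were compared in the vehicle libraries, and both comparisons share the *GFI1-36S* library. In *GFI1-KD*, all 5 later genes with a peak ranked higher than in *GFI1-36S* (median change 19.3, from 8.89 for *Camp* to 49.4 for *S100a8*), while the primary median changed by −4.87. Of all genes, 57.3% ranked higher and 42.7% lower there. None of the granule genes was lost or gained between these libraries, where 2.10% of 12018 genes had a peak in *GFI1-36S* alone and 5.33% in *GFI1-KD* alone. In *GFI1-36N*, all 5 later genes ranked lower than in *GFI1-36S*, with a median of −7.08, and *Ltf* had no promoter peak within 1 kb, although it had one within 3 kb or with the TSSs of every annotated transcript. The primary median changed by −1.86. Of all genes, 53.6% ranked lower and 46.4% higher. Over all 11732 genes, 3.40% had a peak in *GFI1-36S* alone and 3.03% in *GFI1-36N* alone. The *GFI1-36S* values would be those of the library without granule peaks if its treatments were exchanged.

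All 10 regulators of granule genes looked at had a promoter peak in the 5 libraries other than *GFI1-36S* curcumin, beside 50.6% to 53.8% of all genes. *Cebpb*, which encodes a C/EBP factor of mature and stressed myeloid cells, ranked 86.5 to 89.1 in these 5 libraries, and *Spi1*, which encodes PU.1, ranked 90.8, 97.8, 89.6, 98.1 and 99.0. *Cebpe*, the gene of C/EBP epsilon, had the lowest change of these regulators in the *GFI1-KD* pair, at 34.6 with vehicle and 8.50 with curcumin, whereas its rank in the *GFI1-36N* pair was 19.0 without and 34.9 with treatment. *Myb* went from 44.8 to 88.6 in the *GFI1-36N* pair and was 46.3 in both *GFI1-KD* libraries. In *GFI1-36S* curcumin, *Cebpa*, *Cebpd*, *Cebpe* and *Spi1* had no promoter peak, beside 16.2% of all genes lost in this pair. *Gfi1* ranked 68.8 there, against 20.96 with vehicle. Over the 10 regulators, the median change was 0.028 in the *GFI1-KD* and 0.292 in the *GFI1-36N* pair, beside −2.34 and 1.89 for all genes.

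The other granule genes did not move as one in the *GFI1-KD* pair. Of 13 other specific and gelatinase granule genes with a peak, 9 ranked lower and 4 higher with curcumin (median change −8.46), close to the 62.9% of all genes that ranked lower. *Mmp9*, the gelatinase B gene, and *Retnlg* lost their promoter peaks, from ranks 17.1 and 19.6, as did 6.73% of all genes in the pair. *Hp*, the haptoglobin gene, *Slc11a1*, *Mmp8* and *Cybb* ranked higher. In *GFI1-36N*, 7 of 11 ranked lower, against 39.9% of all genes, with the widest change at *Itgb2* (−26.6), which encodes the beta subunit of leukocyte integrins. *Cyba*, a subunit gene of the NADPH oxidase, had the highest mean rank of this list, 58.2.

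Among 6 other azurophil granule genes with a peak in the *GFI1-KD* pair, 3 ranked lower and 3 higher (median change −0.372), where 62.9% of all genes ranked lower. *Cd63*, a granule membrane protein, went from 47.9 to 7.28 and *Gusb*, the beta-glucuronidase gene, from 38.1 to 72.9. *Srgn*, which encodes the granule proteoglycan serglycin, ranked 74.4 and 80.9. In the *GFI1-36N* pair, 5 of 7 ranked higher (median change 5.54), *Cd63* by 37.4, and 60.1% of all genes did so too.

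Of 7 neutrophil receptor genes with a peak in the *GFI1-KD* pair, 4 ranked lower and 3 higher with curcumin (median change −6.15), a split near that of all genes (62.9% lower). *Cxcr2*, *Fpr1* and *Ly6g*, 3 of these 7, were lost, from ranks 16.4, 16.1 and 6.15, beside 6.73% of all genes in the pair. *Fpr2* went from 24.3 to 3.18. *Csf3r*, the receptor of granulocyte colony-stimulating factor, ranked higher with curcumin, at 45.6 and 66.4 in *GFI1-KD* and at 53.6 and 99.9 in *GFI1-36N* mice. *Cxcr4* ranked from 78.7 to 99.9 over the 6 libraries.

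**Figure D5:**
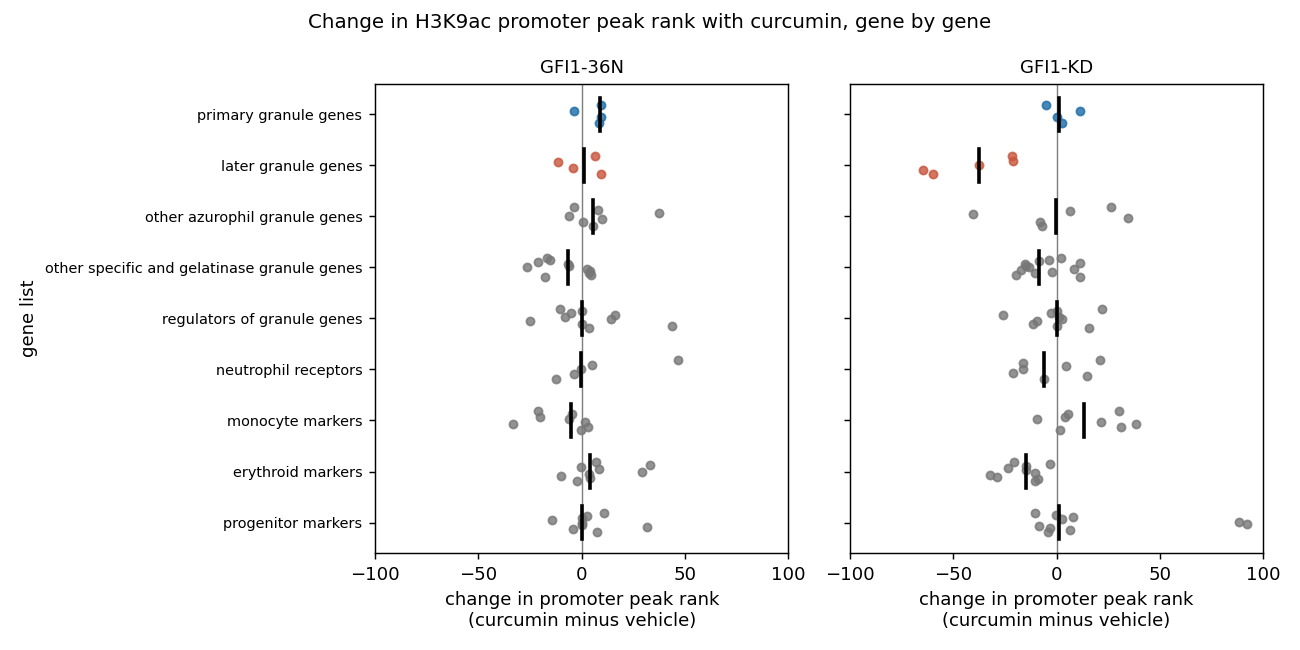
Change in promoter peak rank, curcumin minus vehicle, of each gene with a promoter peak in the GFI1-36N (left) or GFI1-KD (right) pair, by gene list, with the median of each list (black bars). In GFI1-KD the later granule genes have the lowest median, −37.7, and the monocyte markers the highest, 13.5. In GFI1-36N the medians lie between −6.47 and 8.81.

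For each granule gene with a promoter peak in at least 4 libraries, the gene more than 100 kb away with the most similar ranks was sought, by the sum of the absolute rank differences over the 6 libraries. *Camp* was closest to *Ffar2*, a fatty acid receptor gene (sum 6.50), which ranked 22.0 in *GFI1-KD* vehicle and 0.027 in *GFI1-KD* curcumin. *S100a8* was closest to *C5ar1*, the complement C5a receptor gene (sum 29.98), at 54.3 and 9.16. *S100a9* was closest to *Oscar* (sum 31.2), which had a peak in *GFI1-KD* vehicle alone, at 58.3. *Ngp* was closest to *Slc4a1*, the erythrocyte anion exchanger gene (sum 10.6), at 33.4 and 0.981. The closest genes to the primary members were *Slc44a4* for *Elane* (4.89), *Hook1* for *Prtn3* (5.71), *Glrp1* for *Ctsg* (14.4) and *Cracr2b* for *Mpo* (16.5). With 6 values per gene and 21938 genes to choose from, close matches are a description.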

How the data were processed

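H3K9ac was profiled in 6 libraries of BM cells. The labels and the paper's methods name BM cells, whereas the title of a figure in the paper names c-kit+ cells. The authors used Trim Galore for trimming, BWA-MEM for mapping to mm10 and MACS2 for peak calls, 1 list per library, from which black list regions were removed. As deposited, fold enrichment is a ratio of scaled summit fragments over local background. Each peak also has the authors' −log10 p and q. None of these values is normalized between libraries. The control and threshold of each list are not given in the sources used here, and the lowest deposited −log10 q was 1.31 to 1.46. An input and a rabbit IgG sample were not used here.

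TSSs were those of the basic transcripts of protein-coding genes in GENCODE M21, without the mitochondrial genome. The plan named any annotated TSS. The basic set was taken in its place after the peaks had been seen, because it gave the same gene counts as earlier processing of these data, and every transcript became the alternative. Promoters reached 1000 bp to both sides of each TSS, and 1 bp sufficed for overlap. Ranks used the fold enrichment of the strongest promoter peak. Whole fragments at the summits were recovered from fold enrichment and p by the relation that MACS2 uses, within 0.002 on the −log10 p scale, for 98.6% to 100.0% of the peaks of a library. The median summit held 24 to 36 fragments, with exact Poisson intervals from scipy 1.17.1 (Python 3.11.15, numpy 2.4.6). Each fragment was worth between 0.840 and 1.00 after scaling to the control. The recovery was tested on data simulated with the same relation, where all of 2651 counts were found. That test covers the inversion and not whether the deposited values follow the relation. The genes and motifs named follow a written rule: the 10 genes, up to 4 genes of each neutrophil list by mean rank and by rank change, promoters within 10 kb, the most similar gene and 5 motifs. *Cxcr2*, *Fpr1*, *Ly6g*, *Mmp8*, *Mmp9*, *Cybb*, *Hp*, *Slc11a1*, *Cebpa*, *Cebpd* and *Gfi1* are named after their values were seen. The granule genes, the lists and the alternatives were chosen with earlier results of these data known. Settings varied in turn were a stricter −log10 q (5 or more), lists trimmed to their 20354 top peaks, a 3 kb window, the most upstream TSS, ranks by −log10 p, all biotypes, summits inside the window, ranks among distinct peaks, the strongest peak within 10 kb, 3 and 20 kb around the genes, the TSSs of every transcript and the exchanged *GFI1-36S* treatments. With 1 library per group, no test within a GFI1 form was possible. The forms were not treated as replicates of the treatment, and no test across them was run.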

Additional observations from a re-analysis of the deposited data

Results flagged for a closer look

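The median rank change of the granule genes with curcumin differed in direction between the GFI1 forms. For the primary genes the values were −17.6 (*GFI1-36S*), 8.81 (*GFI1-36N*) and 1.22 (*GFI1-KD*). For the later genes they were −18.4, 1.12 and −37.7 in the same order. The *GFI1-36N* value of 1.12 includes *S100a9*, *Ngp* and *Camp*, whose strongest peak lay outside the promoter window in 1 library of the pair. At *S100a9* and *Ngp* the strongest peak within 10 kb had a lower fold enrichment with curcumin, and at *Camp* a higher one. These strongest peaks lay at different sites with vehicle and curcumin. Each form has 1 library per treatment, and the difference between the forms was not tested. In the library labelled *GFI1-36S* curcumin, T-cell markers had peaks in place of monocyte, erythroid and progenitor markers, and the *GFI1-36S* values take the opposite sign with the treatments exchanged.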

How the results depend on the processing

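No paired analysis was possible because the groups share no replicate numbers, each holding 1 library, and no result comes from a test. A fit with the 3 GFI1 forms as blocks was not run. Of 246 recomputed values, 213 stayed within 1.5 times the reported count or within 10 rank points of the reported median difference, with the same sign. These include values that were 0 in every setting, such as the median differences in *GFI1-36S* curcumin, where the later genes had no promoter peak. Later minus primary became −9.84 in *GFI1-KD* vehicle with the summit inside the window, and −27.9 in *GFI1-KD* curcumin when ranked among distinct peaks. In *GFI1-KD* vehicle, 4 of the 5 later summits and those of *Prtn3* and *Mpo* lie more than 1 kb downstream of the most upstream TSS. With the summit inside the window, the later genes with a promoter peak numbered 3 in *GFI1-36S* vehicle, 2 in *GFI1-36N* vehicle and 3 in *GFI1-KD* vehicle, the *GFI1-KD* pair lost 2, the *GFI1-36N* pair lost 1 and gained 2, *GFI1-36N* against *GFI1-36S* lost 3 and gained 1, and *GFI1-KD* against *GFI1-36S* lost 2 and gained 1. With 20354 top peaks in each list, 2 later genes had a promoter peak in *GFI1-36N* vehicle, the *GFI1-36N* pair lost 1 and gained 2, *GFI1-36N* against *GFI1-36S* lost 2, and *GFI1-KD* against *GFI1-36S* lost 1 and gained 1. With a −log10 q of at least 5, the *GFI1-36N* pair lost 1 and gained 1 and *GFI1-36N* lost 2 against *GFI1-36S*. A window of 3 kb gave 1 lost in the *GFI1-36N* pair and 0 lost in *GFI1-36N* against *GFI1-36S*. The plan had named the TSSs of every transcript, and the basic set replaced them after the peaks had been seen. With every transcript, 1 primary gene (*Prtn3*) had a peak in *GFI1-36S* curcumin and 5 later genes had one in both *GFI1-36N* libraries. In *GFI1-36N* against *GFI1-36S*, 0 were lost. Later minus primary was then −5.96 in *GFI1-36S* vehicle and −22.6 and −23.7 in *GFI1-36N* vehicle and curcumin. It was 15.1 and −22.0 in *GFI1-KD* vehicle and curcumin. Exchanging the *GFI1-36S* treatments gave 0 lost and 9 gained in that pair, 0 lost and 8 gained in *GFI1-36N*, and 9 gained in *GFI1-KD* against *GFI1-36S*. Within 20 kb, 2 primary and 2 later genes had a peak in *GFI1-36S* curcumin and 4 later genes in *GFI1-KD* curcumin. Where the construction of a setting does not show it, the cause was not tested.

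The lists hold peaks alone, and acetylation below the threshold is not seen. Ranks near 0 rest on few fragments. The mixture of cells behind each library was not measured.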
